A study of Mus musculus with 12 samples.

Results

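The 46 genes described here encode machinery that finishes an mRNA, carries it out of the nucleus and checks it: the TREX complex and the export receptor (10 genes), the cleavage and polyadenylation factors (18 genes), the writers and readers of N6-methyladenosine (m6A, 7 genes), and the factors of nonsense-mediated decay (NMD) with the exon junction complex (EJC, 11 genes). They were chosen by gene symbol and not by a cutoff on any measured value, but with earlier results of these data known. All 46 were found among the 51490 genes of the count table, and all 46 were among the 15037 genes with enough counts to be tested, with no fewer than 158 counts in any sample. The authors sequenced poly(A) RNA of immortalized mouse embryonic palatal mesenchyme (iMEPM) cells, a line from a male *Cdkn2a*-/- embryo that models the connective tissue of the developing palate. A first line carried a scramble shRNA and a second line an shRNA against *Srsf3*, each stably integrated from a lentivirus that also carries GFP, selected with puromycin, sorted for GFP and grown for 9 to 20 passages. Cells of both lines were serum starved and then harvested without stimulation (-PDGF-AA) or after 1 hr of PDGF-AA at 10 ng/mL (+PDGF-AA), which gave 4 groups of 3 samples, named scramble -PDGF-AA, shSrsf3 -PDGF-AA, scramble +PDGF-AA and shSrsf3 +PDGF-AA below. Each shRNA is represented by 1 sorted line, so that the spread among samples, and every p-value, is that of cultures of 1 line, and an effect of the shRNA cannot be told apart from another difference between the lines.

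Export of most mRNAs relies on TREX, which is loaded during transcription and splicing and hands the transcript to the receptor pair NXF1 and NXT1. The 3′ end is made by CPSF, which binds the AAUAAA signal and cuts, together with CFIm, CstF and CFIIm, and poly(A) polymerase then adds the tail. METTL3, METTL14 and WTAP place m6A on transcripts, YTH proteins bind it, and NMD, with UPF and SMG proteins and the EJC, degrades transcripts with premature stop codons. The splicing factor SRSF3 is known to touch these steps, since SR proteins act as adapters for NXF1 and the nuclear m6A reader YTHDC1 recruits SRSF3, and *Srsf3* itself is known to be limited by a premature stop codon exon that leads to NMD.

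Values below are CPM, the counts of a gene scaled to a common library size, and log2 fold changes with their standard error (SE). A gene was called where the quasi-likelihood test of edgeR gave an adjusted p (Benjamini-Hochberg) of 0.05 or less over all 15037 genes. Column totals ranged from 30958870 to 76123207 counts. The targeted gene *Srsf3* had 207, 199 and 212 CPM in scramble and 162, 164 and 161 CPM in shSrsf3 samples without ligand, which is a change of -0.34 ± 0.0379 on the log2 scale (adjusted p = 7.95e-06, edgeR). With PDGF-AA it had 221, 215 and 231 CPM in scramble and 164, 161 and 169.6 CPM in shSrsf3 samples (-0.43 ± 0.0380, adjusted p = 9.54e-07, edgeR), so that the groups did not overlap in either state. These values are RNA levels, and the study reported the loss of SRSF3 protein in the shSrsf3 line by western blot. Of the stretches of 31 bases in *Srsf3* transcripts, 12.4% occurred in another annotated gene. Of 9 mesenchymal markers none was under 1 CPM in all samples, and without ligand their sum was 34915 to 36666 CPM in scramble and 31263 to 33348 CPM in shSrsf3 samples. Most of that sum is *Col1a1* and *Col1a2*, of which *Col1a2* was called lower (-0.37 and -0.40 on the log2 scale without and with ligand) and *Col1a1* was not, and the 9 markers did not move together. *Pdgfra*, which encodes the receptor of the ligand, was called lower (-0.53 and -0.36, adjusted p = 5.33e-06 and 0.000185, edgeR), as were *Prrx1* and *Msx1* in both states and *Osr2* without ligand, while *Vim* (0.25 and 0.24) and *Shox2* (1.76 and 2.04) were called higher and *Twist1* was not called. Markers of epithelium summed to 4.75 to 6.15 CPM in scramble and 2.86 to 4.15 CPM in shSrsf3 samples. Of these, *Cdh1* was called lower (-2.24 and -1.95, adjusted p = 2.65e-06 and 1.80e-05, edgeR), and *Epcam* and *Trp63* were not called. Markers of blood summed to 1.23 to 2.34 CPM, and of endothelium to 0.727 to 1.22 CPM in scramble and 2.14 to 2.70 CPM in shSrsf3 samples. Both muscle markers lay under 1 CPM in every sample. Neural and glial markers, almost all of it *Tubb3*, summed to 28.2 to 31.5 CPM in scramble and 20.0 to 24.7 CPM in shSrsf3 samples. In bulk RNA, fewer cells of a type and less RNA per cell cannot be told apart, and the part of these differences in the results below was not tested.

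The 46 genes differed in level far more than they differed between groups. Per kb of the canonical transcript, averaged over all 12 samples, the helicase gene *Ddx39b* had the highest level at 123 CPM per kb. It was followed by *Eif4a3* (66.1 CPM per kb), the RNA helicase at the core of the EJC, *Pabpn1* (61.7 CPM per kb), the nuclear poly(A) binding protein, *Thoc7* (48.5 CPM per kb) and *Magoh* (45.97 CPM per kb). At the other end stood *Clp1* at 2.55 CPM per kb, which encodes a CFIIm subunit, then *Wdr33* at 5.42, *Smg1* at 5.55, *Nxt1* at 5.62 and *Pcf11* at 6.28 CPM per kb. Subunits of one complex could lie close together, as the 4 CstF genes did (9.27 to 9.88 CPM per kb), or far apart, as *Nxf1* (44.5 CPM per kb) and its partner *Nxt1* did. Within a group of 3 samples the median coefficient of variation over the 46 genes was 4.21% in scramble -PDGF-AA, 2.15% in shSrsf3 -PDGF-AA, 3.71% in scramble +PDGF-AA and 3.28% in shSrsf3 +PDGF-AA. The most variable value was that of *Fip1l1*, a CPSF subunit, with 121, 128 and 87.8 CPM in scramble -PDGF-AA, a coefficient of 19.2%.

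Between shSrsf3 and scramble cells the genes of this machinery moved little. Without ligand, 16 of the 46 (34.8%) were called, 6 higher and 10 lower in shSrsf3 cells, beside 45.9% of all tested genes (22.2% higher and 23.7% lower). With ligand, 14 of the 46 (30.4%) were called, 4 higher and 10 lower, beside 41.0% of all tested genes (20.3% higher and 20.7% lower). None of the 46 reached a 2-fold change in either comparison, where 5.75% and 5.42% of all tested genes did. Groups of 3 samples did not overlap for 19 of the 46 without ligand (background 53.3%) and for 22 with ligand (background 52.6%). A total of 9 (19.6%) were called in both comparisons with the same sign, beside 33.7% of all tested genes (16.7% higher and 16.9% lower), 3 of them higher in shSrsf3 cells (*Cstf3*, *Cpsf1* and *Wdr33*) and 6 lower (*Cstf2t*, *Thoc3*, *Cpsf7*, *Wtap*, *Nxf1* and *Ddx39b*). A further 7 were called only without ligand, 5 only with ligand and 25 in neither, and none was called with opposite signs. Whether an effect differed between the ligand states was tested with the interaction, which is given below.

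**Figure D1:**
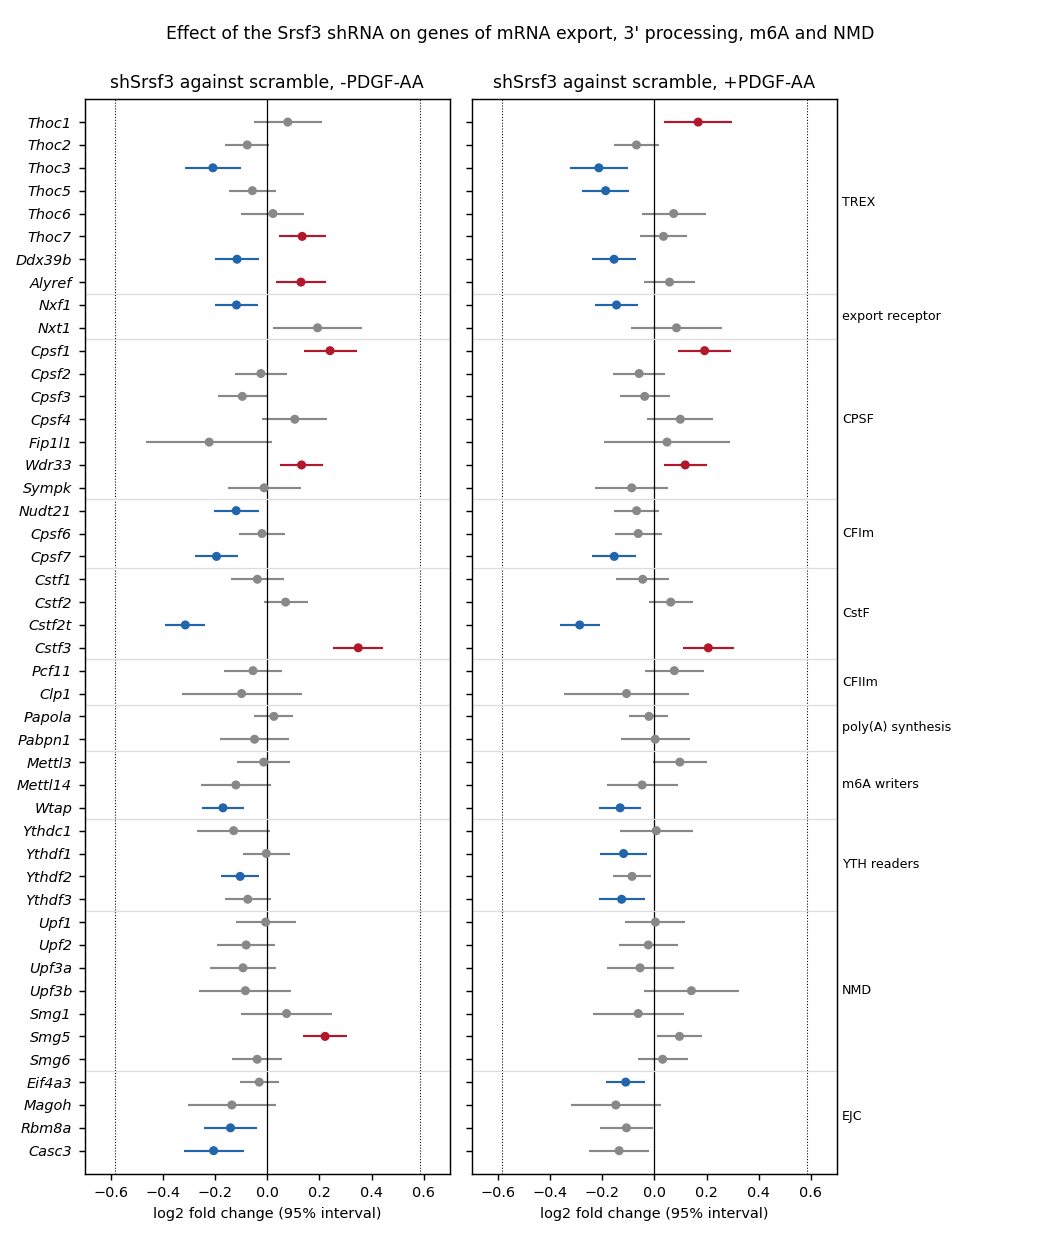
Log2 fold change of each of the 46 genes between shSrsf3 and scramble samples, without PDGF-AA (left) and with PDGF-AA (right), with bars for the 95% interval (n = 3 per group). Red points are genes called higher and blue points genes called lower at an adjusted p of 0.05 or less (edgeR), gray points were not called, and the dotted lines at a change of 1.5-fold enclose every bar.

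The precision of the measurements puts bounds on the changes that were not called. The 95% interval of the fold change lay inside 1.5-fold in either direction for 46 of 46 genes in both comparisons, where this held for 63.5% and 64.6% of all tested genes. An interval inside 1.25-fold was found for 40 genes (87.0%) without ligand and 42 (91.3%) with ligand, beside 40.1% and 41.7% of all tested genes. The median size of the log2 fold change was 0.10 without ligand and 0.09 with ligand for the 46 genes, and 0.20 and 0.19 over all tested genes. Signed, the medians were -0.05 in both comparisons for the 46 genes and -0.02 and -0.01 over all tested genes. The median half-width of the interval was 0.10 for the 46 genes and 0.15 over all tested genes in both comparisons. The 46 genes had at least 158 counts in every sample, while the filter for tested genes used a minimum count of 10. The part of the count level in these differences was not tested. These shares are a description, and no test of the list was made.

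**Figure D2:**
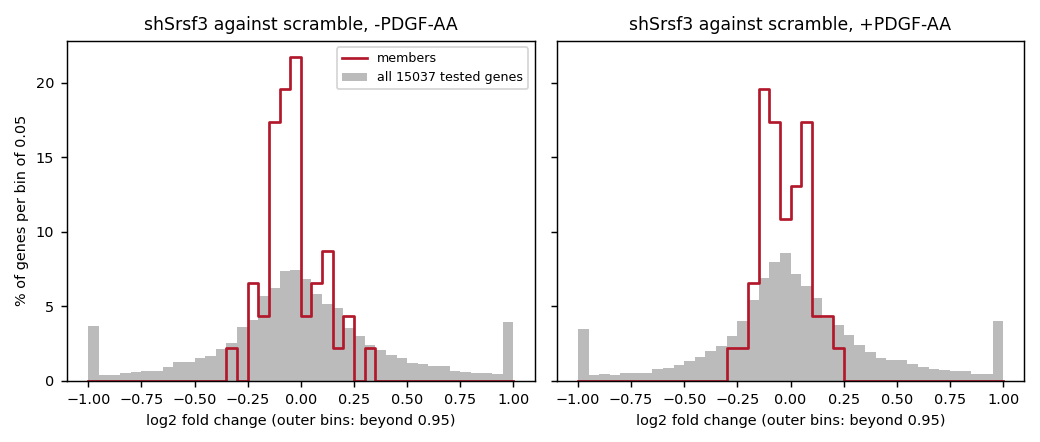
Distribution of log2 fold changes between shSrsf3 and scramble samples, without PDGF-AA (left) and with PDGF-AA (right), as the percentage of genes in each bin of 0.05, with outer bins holding all values beyond 0.95. The red line is for the 46 genes, whose fold changes lie within 0.35 of 0, and the gray bars are for all 15037 tested genes.

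The scramble -PDGF-AA libraries 1 and 2 and the scramble +PDGF-AA library 2 had a lower Salmon mapping rate than the other 9 in the study's methods. Without these 3 libraries, an alternative that leaves 1 scramble -PDGF-AA sample and assumes that it varies like the other groups, 7 of the 46 genes were called without ligand (background 34.3%) and 19 with ligand (background 40.4%). In that fit 6 genes were called in both comparisons, and 5 of these were among the 9 named above: *Cstf2t*, *Cstf3*, *Cpsf1*, *Cpsf7* and *Wtap*. The other 4 of the 9 kept their direction, and *Thoc3*, *Ddx39b* and *Nxf1* were then no longer called without ligand and *Wdr33* in neither state. The calls of *Thoc7*, *Alyref*, *Nudt21*, *Ythdf2*, *Rbm8a* and *Casc3* without ligand were also lost in that fit, and *Thoc1* was called in both states. Some of the 46 genes had values in scramble -PDGF-AA samples 1 and 2 that stood apart from sample 3, with *Fip1l1*, *Casc3*, *Magoh* and *Thoc1* higher in samples 1 and 2. The part of the mapping rate in these values was not tested. Most calls made in 1 state were also lost in more than 1 of the fits that left out a single sample. Without ligand, *Thoc7* lost its call without sample 1 of either line, and *Alyref* without scramble sample 2 or shSrsf3 sample 1 or 2. *Nudt21* and *Rbm8a* lost theirs without scramble sample 1 or 2 or shSrsf3 sample 1 or 3. *Ythdf2* lost its call without scramble sample 1 or 3 or shSrsf3 sample 2 or 3 (adjusted p up to 0.105, edgeR). Its log2 fold change stayed between -0.12 and -0.09 with any 1 sample left out. With ligand, *Ythdf1* and *Eif4a3* lost theirs without scramble sample 1 or 3 or shSrsf3 sample 2 or 3, *Ythdf3* without scramble sample 3 or shSrsf3 sample 1 or 2 (adjusted p up to 0.112, edgeR), and *Thoc1* in 6 of 12 fits, among them those without scramble sample 1 or 3 or shSrsf3 sample 2 or 3. The calls of *Smg5* and *Casc3* without ligand and of *Thoc5* with ligand were kept with any 1 sample left out.

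Among export factors, 2 TREX genes and the export receptor gene were lower in shSrsf3 cells in both ligand states, beside 16.9% of all tested genes. Of the 8 TREX genes, 2 were called higher and 2 lower without ligand, beside 22.2% and 23.7% of all tested genes. With ligand, 1 was called higher and 3 lower, beside 20.3% and 20.7%. *Thoc3* (chr13:54604629-54616666, GRCm39, minus strand) encodes a WD repeat subunit of the THO core of TREX. It had 42.4, 39.1 and 36.5 CPM in scramble and 33.6, 34.04 and 34.4 CPM in shSrsf3 samples without ligand, and 38.1, 39.3 and 39.3 (scramble) and 33.1, 32.4 and 35.2 CPM (shSrsf3) with ligand. Every shSrsf3 sample lay below every scramble sample of its state, with a log2 fold change of -0.21 ± 0.0503 and -0.21 ± 0.0510 (adjusted p = 0.00407 and 0.00431, edgeR). Without the 3 libraries of lower mapping rate the change without ligand was -0.11 (adjusted p = 0.132, edgeR).

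*Ddx39b* (chr17:35460454-35472683, GRCm39, plus strand), also known as UAP56, encodes the helicase that joins TREX to the transcript. Its level was 223, 232 and 221 CPM in scramble and 211, 205 and 208 CPM in shSrsf3 samples without ligand, and 222, 237 and 223 (scramble) and 207, 209.8 and 196 CPM (shSrsf3) with ligand. The groups did not overlap, the gaps between them were narrow, and the log2 fold changes were -0.12 ± 0.0390 and -0.15 ± 0.0391 (adjusted p = 0.0265 and 0.00609, edgeR). The call without ligand was lost when scramble -PDGF-AA sample 2, shSrsf3 -PDGF-AA sample 2 or shSrsf3 -PDGF-AA sample 3 was left out, with an adjusted p of up to 0.110. Its paralog *Ddx39a*, no member of the 46, encodes a closely related helicase of the same step, and the start of both coding sequences is shown because the balance of these genes is compared next, with the aligned bases at which they differ in capitals (GENCODE M39, GRCm39, *Ddx39b* at chr17:35462216-35462245 and *Ddx39a* at chr8:84446020-84446049, both on the plus strand).
Ddx39b: atggcagaGAaCgatgtggaCaatgaGctC
Ddx39a: atggcagaACaGgatgtggaAaatgaActT
The 2 coding sequences were 81.2% identical over their alignment, and the longest run shared was 26 bases, shorter than the 31-mers by which Salmon finds matches by default. *Ddx39a* had 60.5, 65.4 and 57.5 CPM in scramble and 63.8, 63.7 and 66.5 CPM in shSrsf3 samples without ligand, and 64.5, 61.5 and 65.4 (scramble) and 70.7, 69.1 and 73.6 CPM (shSrsf3) with ligand. It was called with ligand, at 0.16 ± 0.0490 (adjusted p = 0.0202, edgeR), beside 0.08 ± 0.0489 (adjusted p = 0.192) without. The log2 ratio of *Ddx39a* to *Ddx39b* was -1.88, -1.83 and -1.95 in scramble and -1.73, -1.69 and -1.64 in shSrsf3 samples without ligand, and -1.78, -1.95 and -1.77 (scramble) and -1.55, -1.60 and -1.41 (shSrsf3) with ligand. The ratio was higher in every shSrsf3 sample than in any scramble sample of the same state, by 0.26 on average over the states (exact permutation test, p = 0.005, adjusted p = 0.0138).

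This p is from a two-sided exact permutation test that exchanged samples within each ligand state, in 400 arrangements, with 0.005 the smallest p it can give, and it was adjusted over the 11 paralog pairs compared. The remaining TREX calls were each made in 1 ligand state. *Thoc7* (0.13 ± 0.0419, adjusted p = 0.0187) and the export adapter *Alyref* (0.13 ± 0.0448, adjusted p = 0.0301) were called higher without ligand, while with ligand *Thoc1* was called higher (0.17 ± 0.0604, adjusted p = 0.0396) and *Thoc5* lower (-0.19 ± 0.0419, adjusted p = 0.00279), all by edgeR. *Thoc2* and *Thoc6* were not called. *Nxf1* (chr19:8734088-8748289, GRCm39, plus strand), the export receptor, had 119, 127 and 121 CPM in scramble and 115, 109.5 and 114 CPM in shSrsf3 samples without ligand, and 126, 127 and 126 (scramble) and 111, 119 and 113 CPM (shSrsf3) with ligand. The groups did not overlap in either state, and the log2 fold changes were -0.12 ± 0.0384 and -0.15 ± 0.0385 (adjusted p = 0.0226 and 0.00814, edgeR). Like *Ddx39b*, it lost the call without ligand when scramble -PDGF-AA sample 2 or shSrsf3 -PDGF-AA sample 2 or 3 was left out (adjusted p up to 0.114). Its cofactor *Nxt1* had 11.4, 13.6 and 12.5 CPM in scramble and 14.8, 13.4 and 14.9 CPM in shSrsf3 samples without ligand, and 13.7, 11.7 and 13.9 (scramble) and 13.9, 13.3 and 14.5 CPM (shSrsf3) with ligand. These groups overlapped, and *Nxt1* was not called, with a 95% interval of 0.02 to 0.36 without and -0.09 to 0.26 with ligand on the log2 scale.

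The 2 largest log2 fold changes among the 46 genes without ligand were within CstF, the complex that binds the GU-rich element downstream of the cleavage site. CstF genes moved in opposite directions: *Cstf3* was higher and *Cstf2t* lower in shSrsf3 cells in both states. Of all tested genes, 16.7% were called higher and 16.9% lower in both. *Cstf1* and *Cstf2* were not called in either state. *Cstf2t* (chr19:31060237-31064469, GRCm39, plus strand) encodes an alternative form of the RNA-binding subunit. Its transcript of 4233 bases fills the 4233 bases of its locus without an intron, inside *Prkg1*, which lies on the other strand. Its expression and that of its parent *Cstf2* are compared, so the first 30 coding bases are shown, with the bases at which they differ in capitals (GENCODE M39, GRCm39, *Cstf2* at chrX:132960114-132960143 and *Cstf2t* at chr19:31060466-31060495, both on the plus strand).
Cstf2: atgGcgGgtttgCcAgtGagagacccTgcG
Cstf2t: atgTcgAgtttgGcGgtCagagacccAgcC
The coding sequences were 74.2% identical over their alignment, with no shared run beyond 26 bases, and 0.0238% of all 31-mers of *Cstf2t* transcripts occurred in another gene's transcripts. Without ligand *Cstf2t* had 44.7, 46.001 and 44.6 CPM in scramble and 36.3, 36.8 and 35.7 CPM in shSrsf3 samples. With ligand it had 41.9, 43.9 and 43.5 CPM in scramble and 36.2, 34.7 and 35.1 CPM in shSrsf3 samples. All 6 shSrsf3 samples lay below all 6 scramble samples, and the log2 fold changes were -0.31 ± 0.0353 (adjusted p = 8.66e-06, edgeR) and -0.29 ± 0.0358 (adjusted p = 2.49e-05, edgeR).

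*Cstf2* itself had 42.1, 41.04 and 42.3 CPM in scramble and 44.6, 43.4 and 43.7 CPM in shSrsf3 samples without ligand, and 44.3, 43.4 and 45.7 (scramble) and 44.4, 46.8 and 48.2 CPM (shSrsf3) with ligand. It was not called, with 95% intervals of -0.01 to 0.15 and -0.02 to 0.15 on the log2 scale. The log2 ratio of *Cstf2t* to *Cstf2* averaged 0.11 in scramble -PDGF-AA, -0.28 in shSrsf3 -PDGF-AA, -0.04 in scramble +PDGF-AA and -0.39 in shSrsf3 +PDGF-AA samples. The ratio was lower by 0.37 in shSrsf3 cells (-0.37, p = 0.005, adjusted p = 0.0138, exact permutation test), and by 0.34 without the 3 libraries of lower mapping rate. *Cstf3* (chr2:104420795-104496454, GRCm39, plus strand), the scaffold of CstF, had 30.01, 28.9 and 31.2 CPM in scramble and 38.6, 37.6 and 38.7 CPM in shSrsf3 samples without ligand. With ligand the values were 31.5, 28.6 and 31.7 CPM in scramble and 35.6, 35.6 and 34.8 CPM in shSrsf3 samples. Every shSrsf3 sample was above every scramble sample, with a log2 fold change of 0.35 ± 0.0444 (adjusted p = 2.67e-05, edgeR) and 0.21 ± 0.0450 (adjusted p = 0.00226, edgeR). These 2 genes changed in opposite directions within a complex whose 4 genes had similar levels per kb. TREX genes were also called in both directions, as given above.

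**Figure D3:**
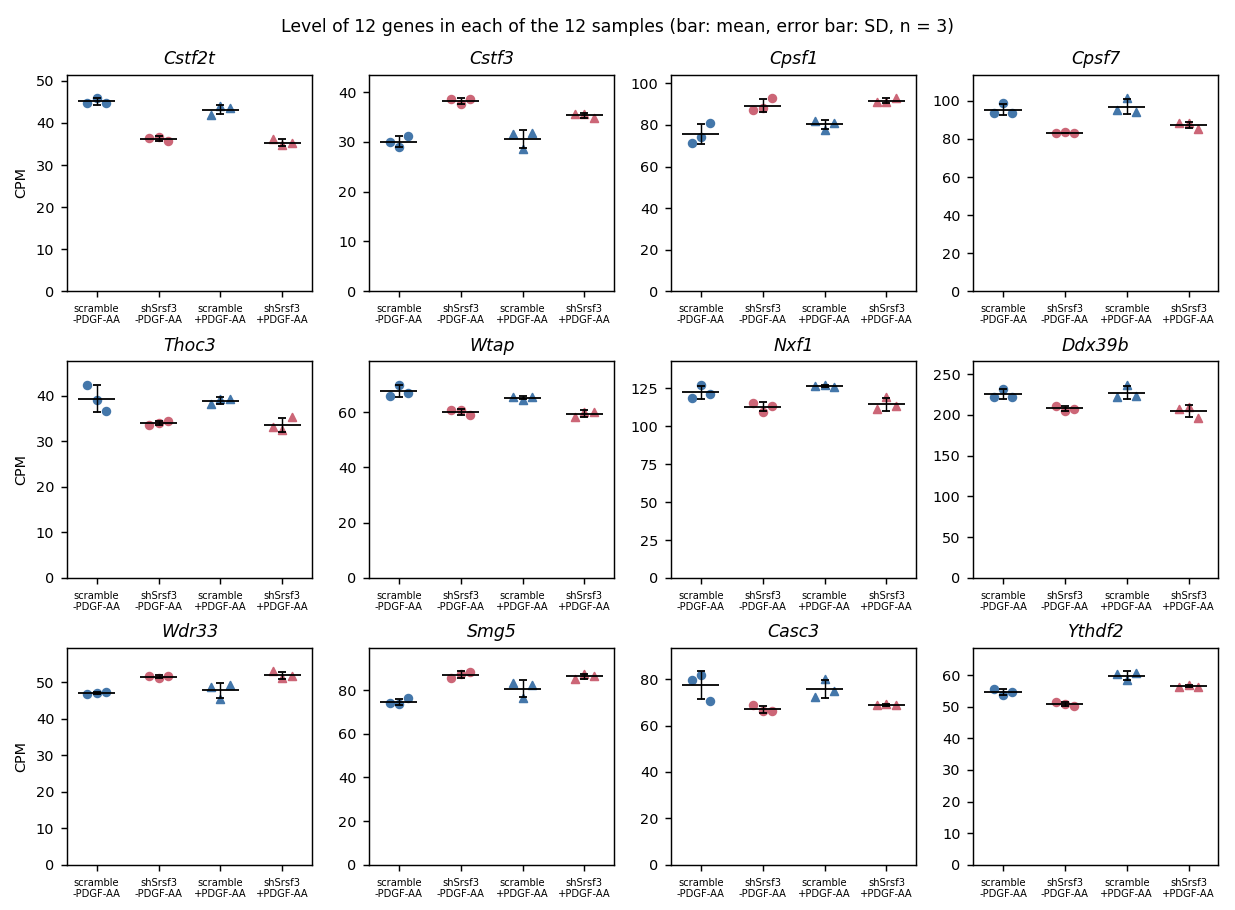
CPM of 12 of the 46 genes in each of the 12 samples, with each axis starting at 0, blue for scramble and red for shSrsf3, circles without and triangles with PDGF-AA, and the mean and SD of 3 samples as bars. *Cstf2t* lies between 34.7 and 36.8 CPM in the 6 shSrsf3 samples and between 41.9 and 46.001 CPM in the 6 scramble samples, and *Cstf3* lies the other way round.

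Of the 7 CPSF genes, 2 were called higher in shSrsf3 cells in both states, *Cpsf1* and *Wdr33*, beside 16.7% of all tested genes, and the other 5 were called in neither. *Cpsf1* (chr15:76480003-76491865, GRCm39, minus strand), the largest CPSF subunit and the scaffold of its signal recognition module, had 71.4, 74.3 and 80.8 CPM in scramble and 87.04, 87.996 and 92.9 CPM in shSrsf3 samples without ligand, and 81.98, 77.6 and 81.1 (scramble) and 90.96, 91.1 and 93.1 CPM (shSrsf3) with ligand. The shSrsf3 samples lay above the scramble samples in both states, by a log2 fold change of 0.24 ± 0.0471 and 0.19 ± 0.0472 (adjusted p = 0.000967 and 0.00498, edgeR). The change without ligand was 0.14 (adjusted p = 0.0424, edgeR) without the 3 libraries of lower mapping rate, which hold the 2 lowest values. *Wdr33*, whose product contacts the AAUAAA signal, had 46.7, 47.04 and 47.3 CPM in scramble and 51.8, 51.1 and 51.6 CPM in shSrsf3 samples without ligand, and 48.5, 45.5 and 49.2 (scramble) and 52.9, 51.01 and 51.6 CPM (shSrsf3) with ligand. Its log2 fold changes were 0.13 ± 0.0376 and 0.12 ± 0.0378 (adjusted p = 0.0113 and 0.0227, edgeR), and the call with ligand was lost without scramble +PDGF-AA sample 2 or shSrsf3 +PDGF-AA sample 1 (adjusted p up to 0.0962). *Fip1l1*, whose product links CPSF to poly(A) polymerase, had the widest interval of the 46 genes without ligand, -0.46 to 0.02 on the log2 scale, with 97.4, 95.3 and 96.1 CPM in shSrsf3 samples against the spread values of the scramble samples given above. The endonuclease gene *Cpsf3*, along with *Cpsf2*, *Cpsf4* and the scaffold gene *Sympk*, was not called.

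CFIm, which binds UGUA motifs upstream of the signal and is known for favoring distal poly(A) sites, had estimates below 0 for 3 of 3 genes in both states. Such estimates were found for 33 and 27 of the 46 genes without and with ligand, and for 7855 and 7788 of all 15037 tested genes. *Cpsf7* (chr19:10502236-10525107, GRCm39, plus strand), 1 of the 2 alternative large subunits, had 93.7, 98.7 and 93.7 CPM in scramble and 83.3, 83.4 and 83.2 CPM in shSrsf3 samples without ligand, and 95.1, 102 and 94.4 (scramble) and 88.2, 88.2 and 85.3 CPM (shSrsf3) with ligand. All shSrsf3 samples were below all scramble samples, with log2 fold changes of -0.19 ± 0.0391 and -0.15 ± 0.0392 (adjusted p = 0.00117 and 0.00635, edgeR). The small subunit gene *Nudt21* was called lower without ligand (-0.12 ± 0.0401, adjusted p = 0.0264) and not with ligand (-0.07 ± 0.0404, adjusted p = 0.201, edgeR). The other large subunit gene *Cpsf6* was not called, at -0.02 ± 0.0414 and -0.06 ± 0.0416. The log2 ratio of *Cpsf7* to *Cpsf6* was lower in shSrsf3 cells on average over the states (-0.13, p = 0.01, adjusted p = 0.022, exact permutation test). The difference was -0.17 without ligand, where the lines did not overlap, and -0.09 with ligand, where they overlapped.

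Neither CFIIm gene and neither gene of poly(A) synthesis was called in any comparison. *Clp1* had 5.95, 6.46 and 6.53 CPM in scramble and 5.66, 5.15 and 7.11 CPM in shSrsf3 samples without ligand, and 5.95, 5.21 and 5.75 (scramble) and 5.37, 4.89 and 5.44 CPM (shSrsf3) with ligand, with wide intervals of -0.33 to 0.13 and -0.35 to 0.13 on the log2 scale at these low counts. *Pabpn1* had 132, 132 and 113 CPM in scramble and 123, 118 and 123 CPM in shSrsf3 samples without ligand, and 111, 126 and 118 (scramble) and 114, 121 and 120.4 CPM (shSrsf3) with ligand. Its groups overlapped, and its 95% intervals were -0.18 to 0.08 and -0.13 to 0.14, with the limit that 15.3% of its 31-mers occurred in another annotated gene. The poly(A) polymerase gene *Papola* stood at 0.03 ± 0.0346 and -0.02 ± 0.0347 on the log2 scale.

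Of the 3 writer and 4 reader genes of m6A, 2 were called lower without ligand (*Wtap* and *Ythdf2*), beside 23.7% of all tested genes, and 3 with ligand (*Wtap*, *Ythdf1* and *Ythdf3*), beside 20.7%. None of the 7 was called higher. *Wtap* (chr17:13184295-13213056, GRCm39, minus strand), the adapter that brings the methyltransferase to nuclear speckles, had 65.9, 69.9 and 66.96 CPM in scramble and 60.6, 60.8 and 58.8 CPM in shSrsf3 samples without ligand, and 65.5, 64.5 and 65.4 (scramble) and 58.1, 60.2 and 60.1 CPM (shSrsf3) with ligand. All 6 shSrsf3 samples lay below all 6 scramble samples, and the log2 fold changes were -0.17 ± 0.0366 and -0.13 ± 0.0369 (adjusted p = 0.00194 and 0.0113, edgeR). The call with ligand was lost without shSrsf3 +PDGF-AA sample 1 (adjusted p = 0.0558), and 17.4% of the 31-mers of *Wtap* occurred in other annotated genes. The catalytic subunit gene *Mettl3* and its partner *Mettl14* were not called, at -0.01 ± 0.0467 and -0.12 ± 0.0617 without and 0.10 ± 0.0480 and -0.05 ± 0.0631 with ligand.

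Cytoplasmic readers gave small changes. *Ythdf2* (chr4:131911065-131939614, GRCm39, minus strand), which directs m6A transcripts to decay, was called lower without ligand (-0.10 ± 0.0344, adjusted p = 0.0246) and lay just outside the threshold with ligand (-0.09 ± 0.0345, adjusted p = 0.0627, edgeR). *Ythdf3* had 85.1, 85.2 and 85.4 CPM in scramble and 79.4, 79.4 and 84.2 CPM in shSrsf3 samples without ligand, and 88.2, 90.3 and 93.9 (scramble) and 83.2, 80.1 and 86.4 CPM (shSrsf3) with ligand. It was called with ligand (-0.13 ± 0.0409, adjusted p = 0.0248) and not without (-0.07 ± 0.0407, adjusted p = 0.152, edgeR). *Ythdf1* was called with ligand (-0.12 ± 0.0414, adjusted p = 0.0349) and stood at -0.00 ± 0.0413 without (edgeR). The nuclear reader gene *Ythdc1*, whose product recruits SRSF3, was not called, with 95% intervals of -0.27 to 0.01 and -0.13 to 0.15 on the log2 scale. The ratios of *Ythdf1* and *Ythdf3* to *Ythdf2* differed between the lines by 0.03 and -0.01 (adjusted p = 0.484 and 0.875, exact permutation test). Summed over the 7 m6A genes, the level was 398 to 412 CPM in scramble and 376 to 385 CPM in shSrsf3 samples without ligand. With ligand it was 411 to 416 and 387 to 397 CPM, so that the lines did not overlap within a state. The same held for the export genes (684 to 710 and 673 to 679 CPM without, 713 to 721 and 670 to 690 CPM with ligand). It also held for the sum of all 46 genes. The sums of the 3′ processing genes overlapped in both states, and those of the NMD and EJC genes without ligand only. Of all tested single genes, 53.3% without and 52.6% with ligand did not overlap between the lines.

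Of the 7 NMD genes, 1 was called without ligand and 0 with ligand (edgeR), beside 45.9% and 41.0% of all tested genes. With ligand, 1 of the 7 had an unadjusted p under 0.05, beside 7306 of all 15037 tested genes. *Smg5* (chr3:88243555-88269646, GRCm39, plus strand), whose product acts in the dephosphorylation of UPF1, had 73.9, 73.9 and 76.2 CPM in scramble and 85.7, 87.2 and 88.5 CPM in shSrsf3 samples without ligand, and 83.4, 76.3 and 82.3 (scramble) and 85.2, 87.2 and 86.4 CPM (shSrsf3) with ligand. The groups did not overlap in either state, and the log2 fold changes were 0.22 ± 0.0396 (adjusted p = 0.000476, edgeR) and 0.10 ± 0.0397 (adjusted p = 0.0681, edgeR). The helicase gene *Upf1* stood at -0.01 ± 0.0532 and 0.00 ± 0.0534, with 95% intervals of -0.12 to 0.11 and -0.11 to 0.12. *Upf2*, *Upf3a*, *Upf3b*, the kinase gene *Smg1* and the endonuclease gene *Smg6* were not called.

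EJC genes had estimates below 0 for 4 of 4 in both states, beside 33 and 27 of the 46 genes and 7855 and 7788 of all 15037 tested genes without and with ligand. Of the 4, 2 were called lower without ligand and 1 with ligand, beside 23.7% and 20.7% of all tested genes. *Casc3* (chr11:98695731-98724640, GRCm39, plus strand), the peripheral EJC subunit, had 79.6, 81.9 and 70.8 CPM in scramble and 68.8, 66.3 and 66.2 CPM in shSrsf3 samples without ligand, and 72.3, 80.1 and 74.95 (scramble) and 68.8, 69.5 and 68.8 CPM (shSrsf3) with ligand. The shSrsf3 samples were below the scramble samples in both states, and the change was called without ligand (-0.21 ± 0.0535, adjusted p = 0.00658) and not with ligand (-0.14 ± 0.0538, adjusted p = 0.0598, edgeR). Without the 3 libraries of lower mapping rate, which hold the highest values of *Casc3*, the change without ligand was -0.08 (adjusted p = 0.202, edgeR). *Rbm8a*, the Y14 subunit, was called lower without ligand (-0.14 ± 0.0473, adjusted p = 0.0262), and *Eif4a3* with ligand (-0.11 ± 0.0351, adjusted p = 0.0227, edgeR).

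*Magoh*, the partner of Y14, was not called in either state, while its paralog *Magohb*, no member of the 46, was higher in shSrsf3 cells in both. The windows of 30 aligned coding bases shown for this pair begin at the start codon of *Magoh* (chr4:107737055-107737084, plus strand) and at coding base 7 of *Magohb* (chr6:131270093-131270122, minus strand; GENCODE M39, GRCm39), with the differing bases in capitals.
Magoh: atggAGagtgaCttTtacctGcgTtactac
Magohb: atggGTagtgaTttCtacctTcgCtactac
The coding sequences were 81.3% identical, and the longest shared run was 17 bases. *Magoh* had 39.02, 36.001 and 30.001 CPM in scramble and 31.04, 33.6 and 30.6 CPM in shSrsf3 samples without ligand, and 31.9, 33.6 and 32.6 (scramble) and 27.4, 31.1 and 29.996 CPM (shSrsf3) with ligand. For *Magohb* the values were 28.01, 26.9 and 21.7 (scramble) and 29.5, 30.9 and 27.1 CPM (shSrsf3) without ligand, and 23.4, 24.9 and 24.4 (scramble) and 30.5, 32.2 and 31.6 CPM (shSrsf3) with ligand. Without ligand the lines overlapped in each gene, both of which were lowest in scramble sample 3, and did not overlap in the ratio. The log2 ratio of *Magohb* to *Magoh* was -0.48, -0.42 and -0.47 in scramble and -0.07, -0.12 and -0.17 in shSrsf3 samples without ligand, and -0.45, -0.43 and -0.42 (scramble) and 0.15, 0.05 and 0.08 (shSrsf3) with ligand. It was higher by 0.43 in shSrsf3 cells (p = 0.005, adjusted p = 0.0138, exact permutation test), and by 0.44 without the 3 libraries of lower mapping rate. *Magohb* alone was called at 0.20 ± 0.0773 without ligand (adjusted p = 0.0462) and 0.38 ± 0.0782 with ligand (adjusted p = 0.00164, edgeR). Of its 31-mers 19.7% also occur in an annotated gene that overlaps it on the same strand, so that its reads could be split, whereas none of those of *Magoh* occurred elsewhere.

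Over the 11 pairs of paralogs, 5 log2 ratios differed between the lines at an adjusted p of 0.05 or less (exact permutation test within ligand states). Of all tested single genes, 45.9% and 41.0% were called between the lines without and with ligand (edgeR). Ratios of other pairs of genes were not compared, so whether paralogs differ from any pair of genes was not tested. The 5 ratios were the 4 already given and that of the m6A readers *Igf2bp3* and *Igf2bp2*, neither of which is among the 46 genes. This last ratio averaged -1.84 and -1.76 in the scramble groups and -1.24 and -1.24 in the shSrsf3 groups, a difference of 0.56 (adjusted p = 0.0138, exact permutation test). The ratios of *Papolg* to *Papola* (-0.16, adjusted p = 0.055) and of *Upf3a* to *Upf3b* (-0.10, adjusted p = 0.0707) lay just outside the threshold. Those of *Nxt2* to *Nxt1* and of *Igf2bp1* to *Igf2bp2* differed by -0.10 and 0.08 (adjusted p = 0.324 for both).

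**Figure D4:**
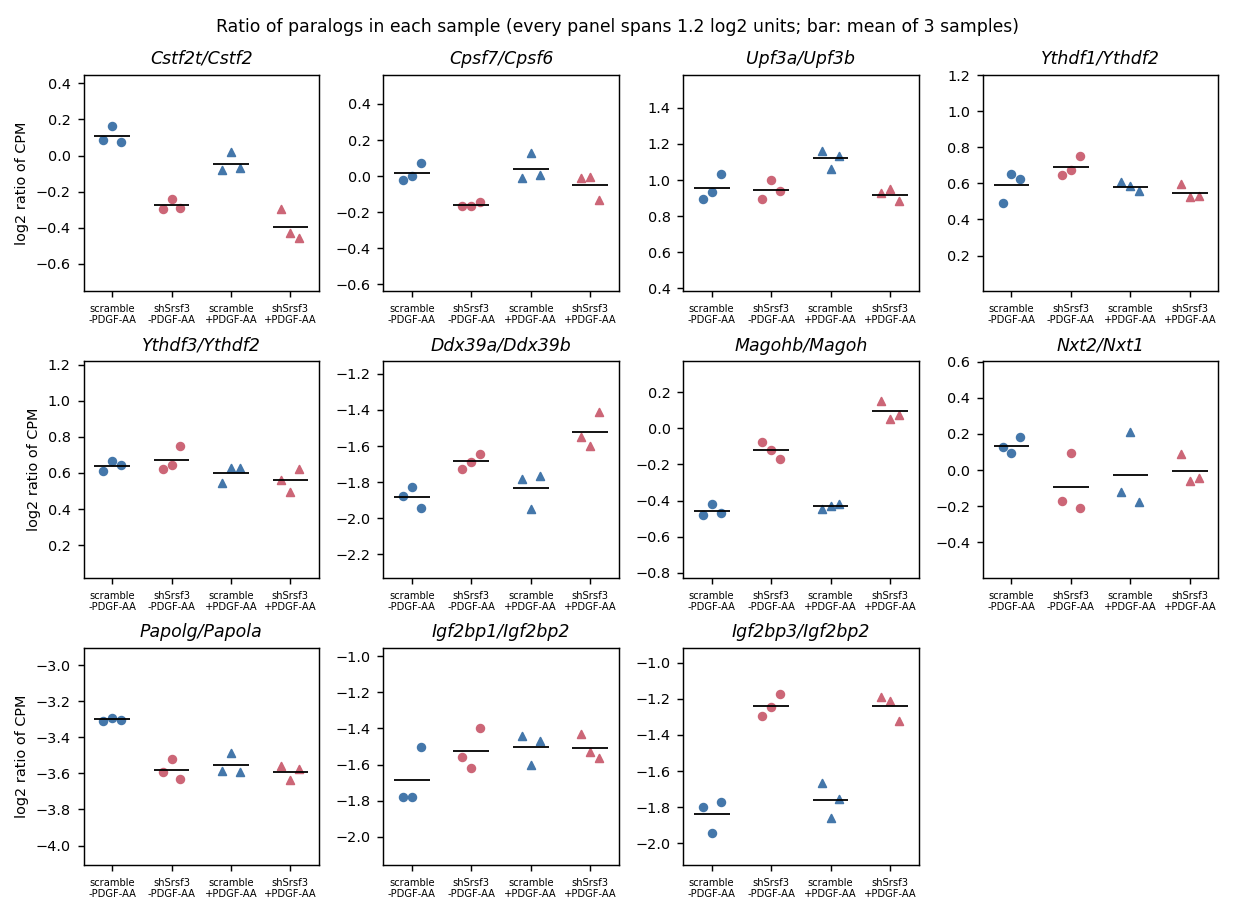
Log2 ratio of CPM for 11 pairs of paralogs in each of the 12 samples, with bars for the mean of 3 samples and every panel spanning the same number of log2 units, blue for scramble and red for shSrsf3, circles without and triangles with PDGF-AA. The ratio of *Magohb* to *Magoh* lies between -0.48 and -0.42 in the 6 scramble samples and between -0.17 and 0.15 in the 6 shSrsf3 samples.

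Other genes of the same 4 pathways moved in like numbers to all tested genes. Of 65 further tested genes, 32 (49.2%) were called without ligand, 12 higher and 20 lower in shSrsf3 cells. The background was 45.9% (22.2% higher and 23.7% lower). With ligand 30 (46.2%) of the 65 were called, 11 higher and 19 lower, beside 41.0% of all tested genes (20.3% higher and 20.7% lower). Of these, 2 were called in both states with the same sign and a change of 0.5 or more on the log2 scale. The m6A demethylase gene *Fto* had 109, 112 and 104 CPM in scramble and 69.6, 68.5 and 67.4 CPM in shSrsf3 samples without ligand, and 111, 115 and 107 (scramble) and 71.5, 68.9 and 65.98 CPM (shSrsf3) with ligand. The ranges lay far apart, with log2 fold changes of -0.66 ± 0.0439 and -0.69 ± 0.0442 (adjusted p = 5.91e-08 and 4.39e-08, edgeR). *Pabpc4*, a cytoplasmic poly(A) binding protein, had 197 to 222 CPM in the 6 scramble and 308 to 329.7 CPM in the 6 shSrsf3 samples (0.56 ± 0.0403 and 0.62 ± 0.0404, adjusted p = 1.11e-07 and 4.96e-08, edgeR), with 39.9% of its 31-mers found in another annotated gene. The cap-binding complex genes *Ncbp1*, *Ncbp2* and *Ncbp3* were called lower in both states, beside 16.9% of all tested genes. Their log2 fold changes were -0.17, -0.17 and -0.39 without and -0.20, -0.18 and -0.34 with ligand. These genes were named after their values were seen.

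A list of transcripts known to be degraded by NMD was also counted. Among 11 tested, which include the members *Smg5* and *Upf2*, 1 was higher and 5 were lower in shSrsf3 cells without ligand, beside 22.2% and 23.7% of all tested genes, and 0 were higher and 4 lower with ligand, beside 20.3% and 20.7% (edgeR). *Gadd45a*, a stress gene, had 23.2, 22.99 and 23.5 CPM in scramble and 17.002, 15.2 and 13.7 CPM in shSrsf3 samples without ligand, and 22.9, 23.8 and 23.5 (scramble) and 15.1, 16.04 and 17.4 CPM (shSrsf3) with ligand (-0.59 ± 0.0674 and -0.53 ± 0.0691, adjusted p = 9.49e-06 and 3.51e-05, edgeR). *Gadd45b*, *Atf4* and *Ddit3*, of the stress response, were lower in both states, with log2 fold changes of -0.33, -0.27 and -0.47 without ligand and -0.17, -0.23 and -0.41 with ligand. The noncoding host transcript *Snhg5* was called lower without ligand (-0.66 ± 0.140, adjusted p = 0.00168, edgeR) and not with ligand (-0.33 ± 0.145, adjusted p = 0.0879), and the interaction was not called (adjusted p = 0.874). *Zfas1*, *Snhg1*, *Tbl2* and *Gas5* were called in neither state, at 0.25, 0.14, 0.01 and -0.04 without ligand and -0.13, 0.01, -0.02 and -0.07 with ligand. Apart from *Gadd45a* and the 2 members, the genes of this list were named after their values were seen.

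Few of the 46 genes were called upon stimulation with PDGF-AA for 1 hr. These comparisons use the same libraries as those between the lines. In scramble cells 1 of the 46 was called (2.17%, background 4.04%, of which 2.00% higher), and in shSrsf3 cells 0 were called (background 0.565%, edgeR). An unadjusted p under 0.05 was found for 7 and 6 of the 46, beside 2643 and 1420 of all 15037 tested genes. DESeq2 called 2 and 1. None reached a 2-fold change (background 0.200% in scramble cells). The gene called in scramble cells, *Ythdf2*, had 55.6, 53.7 and 54.7 CPM without and 60.4, 58.4 and 60.8 CPM with ligand in scramble samples, and 51.7, 50.8 and 50.1 CPM without and 56.4, 56.8 and 56.1 CPM with ligand in shSrsf3 samples. Samples with ligand lay above those without in both lines, by a log2 fold change of 0.13 ± 0.0343 in scramble (adjusted p = 0.0492, edgeR) and 0.15 ± 0.0347 in shSrsf3 cells (adjusted p = 0.0873, edgeR). The call in scramble cells was lost in 10 of 12 fits that left out 1 sample, with an adjusted p of up to 0.202, and was kept only without scramble -PDGF-AA sample 3 or scramble +PDGF-AA sample 2. The 95% interval of the ligand's effect lay inside 1.25-fold for 42 of the 46 genes in scramble and 44 in shSrsf3 cells (91.3% and 95.7%, beside 59.4% and 62.4% of all tested genes), and inside 1.5-fold for 46 in both.

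**Figure D5:**
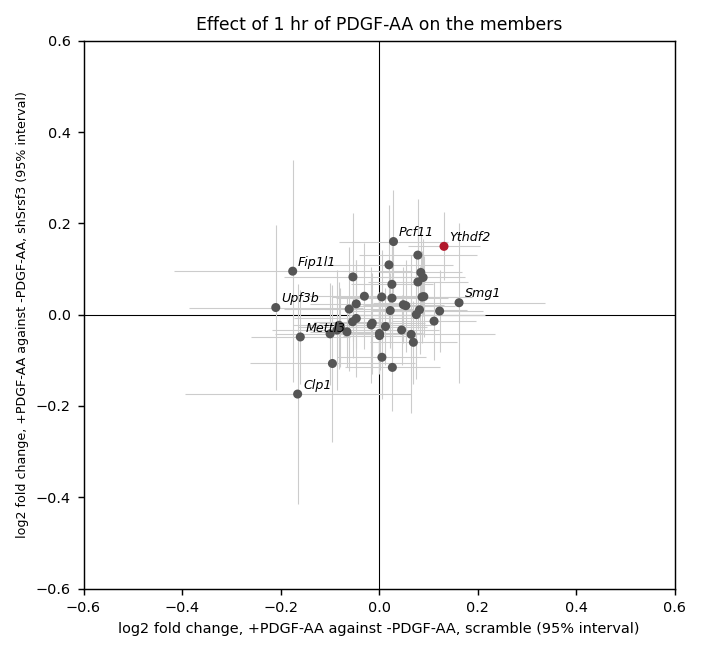
Effect of PDGF-AA for 1 hr on each of the 46 genes, as the log2 fold change in scramble cells (horizontal) and in shSrsf3 cells (vertical), with lines for the 95% intervals and names for most genes beyond 0.12 on either axis. The red point is *Ythdf2*, the only gene called, at 0.13 and 0.15, and the other points lie around 0.

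The effect of the shRNA was not shown to depend on the ligand for any of the 46 genes. By the interaction of shRNA and ligand, 0 of the 46 were called (edgeR, background 0.0133%), and DESeq2 also called 0. An unadjusted p under 0.05 was found for 3 of the 46 genes, beside 833 of all 15037 tested genes. *Cstf3* had an interaction of -0.14 ± 0.0631 (adjusted p = 0.874, edgeR), *Smg5* of -0.13 ± 0.0560 and *Thoc5* of -0.13 ± 0.0589, each with an adjusted p of 0.874 (edgeR). The difference between the lines was nearer to 0 with ligand for *Cstf3* and *Smg5* and further from 0 for *Thoc5*. The interval of the interaction lay inside 1.5-fold for 45 of the 46 genes (97.8%, beside 70.6% of all tested genes) and inside 1.25-fold for 40 (87.0%, beside 51.5%). The exception at 1.5-fold was *Fip1l1*, with an interaction of 0.27 and a 95% interval of -0.07 to 0.61 on the log2 scale.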

How the data were processed

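Poly(A) RNA of 12 iMEPM samples, 3 per group, was sequenced by the authors. Reads were trimmed with BBDuk, quantified by Salmon 1.4.0 on the GENCODE M26 transcripts (GRCm39) and combined into genes by tximport, whose scaling option is not given in the sources used here. The deposited values are expected counts, estimated numbers of reads per gene without scaling to library size, of which 16.3% were not whole. Column totals were 30958870 to 76123207, and 24352 of 51490 genes had no count after rounding.

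Expected counts were rounded, passed through filterByExpr (minimum count 10) and TMM scaling in edgeR 4.0.16. The quasi-likelihood test was fitted to 15037 genes in 1 model with 4 group means and all 12 samples, and checked on simulated data. A gene was called at an adjusted p (Benjamini-Hochberg) of 0.05 or less without a minimum fold change, and the 2-fold limit of the study's methods was applied beside it. Intervals of 95% used the test's degrees of freedom. Log2 ratios of paralogs were compared with an exact permutation test within ligand states. DESeq2 1.42.0, another scaling, no filter, a replicate block, other sample sets and each sample left out were tried. R 4.3.3, Python 3.11, pandas 2.3.3, numpy 2.4.6, matplotlib 3.10.9 and biopython 1.88 were used, with positions and sequences by symbol from GENCODE M39, which annotates GRCm39 too but is newer than M26.

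The 46 genes and all lists were chosen with earlier results of these data known. Values in every sample are given for members called in both shSrsf3 comparisons with the same sign (at most 10, the largest first), members called upon PDGF-AA or in the interaction, and the member with the largest mean change in each of 11 complexes or classes. Of the wider list, genes called in both comparisons with the same sign and a change of 0.5 or more on the log2 scale in both, and the paralogs, are named. The cap-binding complex genes and most genes of the NMD list were named outside this rule. *Alyref2* was left out, so that 11 of the paralog pairs considered were compared.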

Additional observations from a re-analysis of the deposited data

How the results depend on the processing

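Of the calls between shSrsf3 and scramble cells, none changed sign under any alternative. The count without ligand was 7 instead of 16 without the 3 libraries of lower mapping rate, a fit with 1 scramble -PDGF-AA sample, and leaving out 1 sample gave 11 to 21 without ligand, 10 to 17 with ligand and 7 to 12 in both. A minimum fold of 2 left 0 genes in both comparisons between the lines, among the 46 genes and among the 65 further genes, and 0 upon PDGF-AA in scramble cells. The 65 further genes gave 25 to 33 and 23 to 33 calls with 1 sample left out. Upon PDGF-AA in scramble cells, DESeq2 called 2 genes, *Ythdf2* and *Ythdf1*, and a fit without the count filter 3, *Fip1l1*, *Upf3b* and *Smg1*, in place of *Ythdf2*. That count was 0 with the replicate block, with only the compared groups in the fit and without the 3 libraries, and 0 to 4 with 1 sample left out. In shSrsf3 cells, DESeq2 and the fit without the 3 libraries each called 1, *Ythdf2*, and leaving out 1 sample called 0 in every fit, as it did for the interaction. The causes were not tested.

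Deviations of same-numbered samples of different groups correlated between -0.14 and 0.20 (median -0.001). Those of samples with other numbers correlated between -0.34 and 0.24 (median -0.011). With 3 samples per group, these values cannot decide whether replicate numbers pair the samples. With the number as a block, 16, 13 and 9 genes were called without ligand, with ligand and in both. With another scaling, 31 instead of 33 of the 46 estimates without ligand lay below 0. The ratio of *Igf2bp1* to *Igf2bp2* turned to -0.04 without the 3 libraries and had not been called. The median half-width of the 95% interval was 0.10 on the log2 scale for the 46 genes in both comparisons between the lines, and intervals cover the spread among 3 cultures of 1 line per group only.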
